A study of Mus musculus with 6 samples.

Results

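The level of each gene in embryo heads heterozygous for an insertion allele of Prdm15 was set against the midpoint of both homozygotes, wild type and mutant. The contrast was the heterozygous mean minus the average of the wild-type and mutant means on the log2 scale, so it is 0 where the heterozygote lies midway in fold, positive above and negative below. All 24062 gene symbols of the count files belong to it, and 15187 had enough reads to be tested. PolyA+ RNA came from mouse embryo heads at embryonic day 8.5 on a C57BL/6 background. There were 6 libraries, 2 each of wild type (Prdm15 tm1a+/+), heterozygotes (tm1a+/-) and mutants (tm1a-/-), with 29412227 to 40439234 reads in genes. The 2 values given for a genotype below are those of its library 1 and library 2; the heterozygous ones are titled R_HET and T_HET. The protocol speaks of 2 heads per genotype, and the labels name no litter, batch or pairing. P-values therefore measure the spread between these libraries only, and anything else that sets both heterozygous libraries apart from the other 4 cannot be told apart from genotype.

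Prdm15 encodes a zinc finger protein of the PRDM family that regulates transcription. The tm1a allele is a knockout-first design in which a cassette placed within the gene is meant to trap and truncate the transcript; it is present in every cell and needs no Cre. A recessive loss leaves one normal copy able to hold a target gene at its wild-type level, whereas a target that follows the dose of the protein lies between the homozygotes, and a dominant effect brings the heterozygote to the mutant level. The day 8.5 head is a folding neural plate already divided into forebrain, midbrain and hindbrain, with crest, mesenchyme, surface ectoderm and foregut around it, and the heart and yolk sac lie close by.

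Titles and attachments disagreed for 2 count files, each bearing the other's title, 1 of wild type and 1 of mutant. Files were assigned here by title; for each of the 6 files, 0 genes differed in zero status from the column of the same title in the authors' deposited table of RPKM values, and 1355 to 1742 genes from any other column. With the files as attached in the record the contrast mixes 1 library of each homozygote in both homozygous groups, and 0 genes passed, with 250 at an unadjusted p under 0.05.

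Prdm15 itself was counted at 35.2 and 32.6 CPM (counts scaled by library size) in wild type, 28.3 and 31.8 in heterozygotes and 26.6 and 32 in mutants. Its departure from the midpoint was -0.07 (SE 0.10, log2) and did not pass (adjusted p = 0.875). Reads over the whole gene do not separate normal from trapped transcripts, so they check none of the genotype labels. Otx2, the homeobox gene of forebrain and midbrain named in the series title, measured 109 and 86.1 CPM in wild type, 75.4 and 71.9 in heterozygotes and 42.5 and 24.9 in mutants. Heterozygotes lay between the homozygotes without overlap, at 0.37 of the way from wild type to mutant in CPM, and the departure from the log2 midpoint of 0.36 (SE 0.21) did not pass (adjusted p = 0.646). It was 0.58 without mutant library 1 and 0.20 without mutant library 2.

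By edgeR's quasi-likelihood test, 96 genes departed from the log2 midpoint at an adjusted p under 0.05, which is 0.632% of the genes tested. All 96 were above the midpoint and 0 were below it. At an unadjusted p under 0.05 there were 1150 genes above (7.57%) and 344 below (2.27%). The median departure of all genes tested was 0.01. A log2 midpoint is a geometric mean and always lies under the arithmetic one, so a gene with equal steps in CPM for each allele falls above it, by more the larger the fold between homozygotes. Each gene was therefore also tested against the arithmetic midpoint in CPM, called the linear midpoint here. Against that, 0 genes passed (0%), with 958 at an unadjusted p under 0.05 (6.31%).

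The count of 96 rested on single libraries to a large degree. It was 27 without heterozygous library 1, 55 without heterozygous library 2 and 35 without mutant library 2; without mutant library 1 or either wild-type library it was 66 to 128. Other tools gave 8 (limma-voom, all above), 367 (DESeq2, 328 above and 39 below) and 396 (edgeR's likelihood ratio test, 384 above and 12 below). Sex also ran unevenly over genotypes: Xist had 11 and 8 reads in the heterozygous libraries and 11 in wild-type library 1, but 46203 in wild-type library 2 and 47887 and 32299 in the mutants. With a term for high Xist counts 0 genes passed, with 722 at an unadjusted p under 0.05. Only wild type held libraries of both kinds, so the term was set by its 2 libraries alone and left fewer degrees of freedom. A part of sex in the 96 calls was therefore not tested by this fit.

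**Figure D1:**
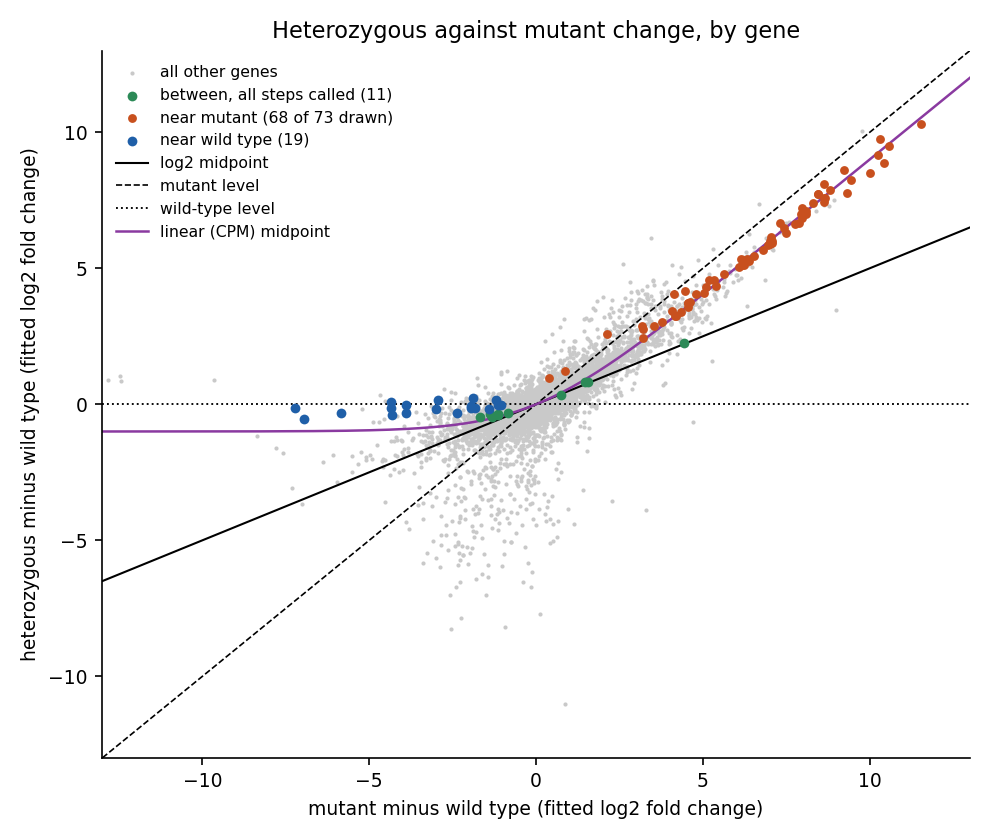
Fitted log2 change of heterozygotes (vertical axis) against that of mutants (horizontal axis), both relative to wild type, 1 point a gene; the 41 genes with 0 wild-type reads are left out. The 19 blue genes sit along the dotted wild-type level, while the orange genes follow the purple curve of the linear midpoint, well above the black log2 midpoint.

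The calls were sorted by the other 3 contrasts of the same fit, in which 4654 genes (30.6%) passed for mutant against wild type, 997 (6.56%) for heterozygous against wild type and 66 (0.435%) for mutant against heterozygous. Mutants were higher in 2594 (17.1%) and lower in 2060 (13.6%), heterozygotes higher than wild type in 916 (6.03%) and lower in 81 (0.533%), and mutants higher than heterozygotes in 11 (0.0724%) and lower in 55 (0.362%). These contrasts share libraries, so the classes are a description. In 19 genes the heterozygote was called apart from the mutant and not from wild type, and lay on the wild-type side of the midpoint; all 19 were lower in mutants. In 73 genes it was called apart from wild type and not from the mutant, on the mutant side; all 73 were higher in mutants. Every midpoint call was above the midpoint, so both directions follow from the side that defines each class. By this test 0 genes had a heterozygous level called above both homozygotes and 0 below both; DESeq2 gave 8 and 11, the likelihood ratio test 4 and 6, and 1 gene passed above with DESeq2 size factors, upper-quartile factors or another filter.

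The 19 genes near wild type had heterozygous levels close to those of wild type in CPM as well as in fold. Their linear position, 0 at the wild-type mean and 1 at the mutant mean, had a median of 0.0982 and ran from -0.219 to 0.309. In 18 of 19 the position was under 0.25, and in 18 of 19 the unadjusted p against the linear midpoint was under 0.05, although the lowest adjusted p there was 0.405. The class rule picks heterozygous levels near wild type in the same libraries, so these values add no separate support. All 19 are named below, more than the 5 that the rule for named genes picks; the others were chosen after their values were seen. They lie on 10 chromosomes and 0 of them on chromosome 16, where Prdm15 lies. The share of all tested genes on chromosome 16 was not counted, so this 0 says nothing particular about the class.

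Fut10, a fucosyltransferase gene (chromosome 8, 31187331 to 31261738, plus strand, GRCm38), had the largest departure of the class. It measured 40.3 and 41.7 CPM in wild type, 36.3 and 37.7 in heterozygotes and 0.186 and 0.375 in mutants. Near-wild-type levels in heterozygotes thus stood beside almost no reads in mutants, and the departure was 3.46 (SE 0.14, adjusted p = 0.00268). Cell surface proteins are encoded by the next 4 genes. Cntnap2, of a neurexin-like adhesion protein, was at 28.7 and 20.2, then 16.8 and 17.1, then 0.16 and 0.238 CPM. Its heterozygous libraries were below both wild-type libraries, at a linear position of 0.309, the highest of the class, and the departure was 2.94 (SE 0.19, adjusted p = 0.00651). Lphn1 (chromosome 8, 83900105 to 83941954, plus strand, under its current name Adgrl1), an adhesion G protein-coupled receptor gene, measured 194 and 169 CPM in wild type, 189 and 195 in heterozygotes and 9.55 and 8.11 in mutants. Wild type and heterozygotes overlapped, and the departure was 2.26 (SE 0.079, adjusted p = 0.00266). Notch3, a receptor of the Notch pathway (chromosome 17, 32120820 to 32166852, minus strand), was at 177 and 192, 162 and 173, and 54.3 and 41.3 CPM, with a departure of 0.83 (SE 0.11, adjusted p = 0.0443). Efnb3, the gene of the membrane-bound ephrin-B3 ligand, was at 65.9 and 63, 48.8 and 55.2, and 13.3 and 11.7 CPM, with a departure of 0.87 (SE 0.083, adjusted p = 0.018). For both the heterozygotes were under wild type and far over the mutants.

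Genes of chromatin and transcription were also among the 19. Satb1, which organises chromatin at AT-rich DNA (chromosome 17, 51736187 to 51833290, minus strand), measured 60.2 and 59.2 CPM in wild type, 57.3 and 47.6 in heterozygotes and 7.13 and 7.67 in mutants, a departure of 1.32 (SE 0.089, adjusted p = 0.00651). Tet1, an enzyme that oxidises 5-methylcytosine (chromosome 10, 62804570 to 62908996, minus strand), was at 62 and 58.3, 58.6 and 57, and 16.9 and 14.3 CPM, a departure of 0.91 (SE 0.081, adjusted p = 0.0145). In Tet1 the heterozygous and wild-type values overlapped and both mutant values were far lower. Zmym3, an X-linked zinc finger gene, was at 36.2 and 34.9, 39 and 39.7, and 15 and 16 CPM, with the heterozygotes highest (departure 0.74, SE 0.061, adjusted p = 0.0109). The zinc finger gene Zfp704 departed by 0.78, Ints10, a subunit of the Integrator complex, by 0.56, and Kansl3, a subunit of the NSL acetyltransferase complex, by 0.49 (adjusted p 0.0231 to 0.0424). These last 2 differed least between homozygotes: Ints10 was at 59.5 and 60.2, 61.1 and 57.3, and 26.7 and 27.6 CPM.

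The remaining genes have mixed roles. Eps15, an endocytic adaptor gene, measured 47.8 and 50.2 CPM in wild type, 58.9 and 54.8 in heterozygotes and 14.2 and 12.1 in mutants, and Scamp1, a carrier membrane protein gene, was at 33.6 and 32.7, 39.4 and 35.2, and 3.81 and 4.84 CPM. Heterozygotes were above wild type in both, at linear positions of -0.219 and -0.144, and the departures were 1.16 (adjusted p = 0.00708) and 1.64 (adjusted p = 0.00651). Plch1, a phospholipase C gene, was at 80 and 66.6, 58.7 and 53.7, and 4.12 and 3.2 CPM. Heph, an X-linked copper ferroxidase gene of iron export, was at 42 and 45.4, 40.3 and 29.1, and 2.9 and 2.93 CPM; heterozygous library 2 was the lower one here and in Satb1. Tk1, the thymidine kinase gene of nucleotide salvage, was at 53.1 and 48.5, 44.6 and 45.7, and 19.2 and 18.8 CPM. The low-count members were Agap2, a regulator of Arf GTPases, Cecr6 and Faah, the fatty acid amide hydrolase gene. Faah had 3.1 and 3.36, 3.77 and 2.58, and 0.186 and 0.238 CPM, and Cecr6 was the member whose unadjusted p against the linear midpoint, 0.0604, missed 0.05. The departures of Plch1, Heph, Tk1, Agap2, Cecr6 and Faah were 1.77, 1.62, 0.54, 2.05, 2.62 and 1.93 (adjusted p 0.00651 to 0.0424).

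All 19 genes near wild type lay above the log2 midpoint in each fit that left out 1 library. The median departure in the fit of all 6 was 1.32. These genes were chosen for lying above it in the same libraries, so this adds no separate support. The class itself held 4 genes without heterozygous library 1, 8 without heterozygous library 2, 12 without mutant library 2 and 0 with the Xist term, where all 19 remained above the midpoint with a median of 1.30. Limma-voom called 8 of the 19. Each fit redrew the class, so a class count can include genes outside the 19.

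**Figure D2:**
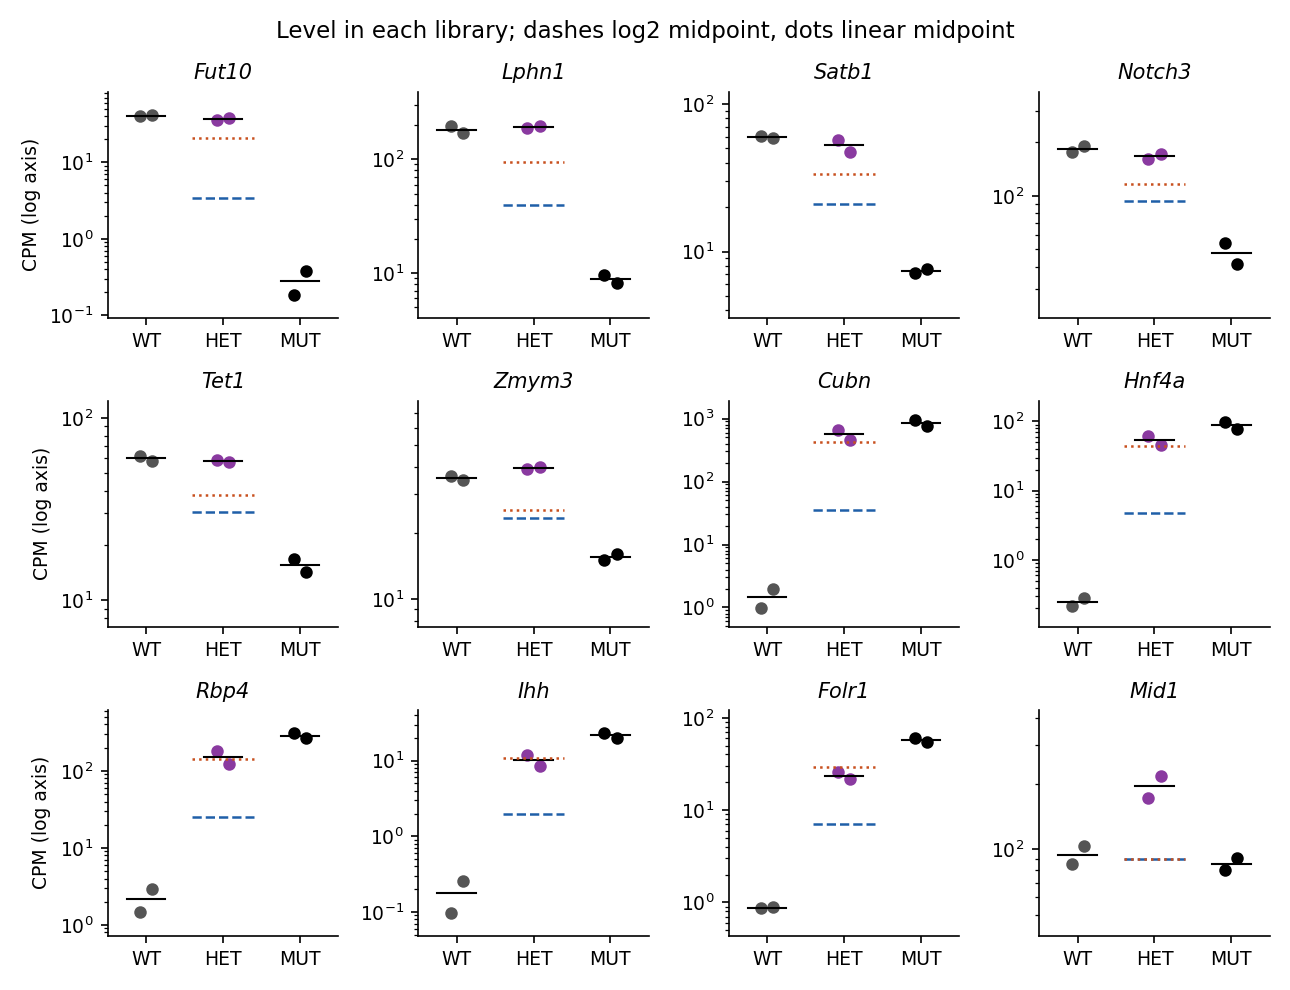
CPM of 12 genes in each library (log axes; 2 points and their mean for each genotype), with the log2 midpoint dashed and the linear midpoint dotted over the heterozygotes. In the first 6 panels, all genes near wild type, the heterozygotes lie above both midpoints; in Cubn, Hnf4a, Rbp4 and Ihh they lie nearer the linear one, and in Folr1 below it.

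The 73 genes of the near-mutant class look different on the 2 scales. Their median position was 0.858 of the way to the mutant in log2, and 0.509 in CPM. In CPM 65 of 73 lay between 0.25 and 0.75, and in 62 of 73 the 95% interval of the departure from the linear midpoint included 0. At an unadjusted p under 0.05 on that scale there were 11 genes, 10 above and 1, Afp, below. Wild-type levels were low, with a median of 0.413 CPM, and 5 of the 73 had 0 wild-type reads, for which the fitted departure is no bound.

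Of the 73 genes, 18 are on the list of yolk sac visceral endoderm, the epithelium that feeds the early embryo and secretes plasma proteins much as liver does later. Hnf4a, a nuclear receptor that drives hepatic and endoderm genes, measured 0.218 and 0.284 CPM in wild type, 61.8 and 45.3 in heterozygotes and 98.8 and 79 in mutants. Its departure from the log2 midpoint was 3.50 (SE 0.19, adjusted p = 0.00636) and that from the linear one 0.26 (unadjusted p = 0.185). Cubn, the receptor that takes up vitamin B12 complexes and lipoproteins, was at 0.992 and 1.93, 661 and 458, and 949 and 766 CPM, with departures of 3.99 (SE 0.23, adjusted p = 0.00636) and 0.38 (unadjusted p = 0.159). In both genes the heterozygotes were far above wild type and under both mutants. Apoa4, an apolipoprotein gene, was at 0 and 0.114, 76.4 and 65, and 184 and 147 CPM, with departures of 4.54 (SE 0.27) from the log2 midpoint and -0.23 from the linear one. Slc2a2, a glucose transporter gene with 3 wild-type reads in all, was at 43.1 and 31.1 CPM in heterozygotes and 58.8 and 50 in mutants, a linear position of 0.682.

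Afp and Rbp4 are also on that list, whereas A1cf and Ihh are not. A1cf, a cofactor of apolipoprotein B mRNA editing, had 0 wild-type reads and 3.19 and 2.68 CPM in heterozygotes against 5.96 and 3.82 in mutants, at least 2.74 above the log2 midpoint if wild type is set to 3 reads over both libraries. Afp, the gene of alpha-fetoprotein, was at 0.169 and 0.683, 155 and 140, and 484 and 365 CPM, a linear position of 0.347. The secreted signal gene Ihh was at 0.0968 and 0.256, 11.9 and 8.58, and 23.4 and 20.2 CPM, and Rbp4, which carries retinol in plasma, at 1.45 and 2.93, 181 and 123, and 308 and 264 CPM. Both stood near the middle in CPM, at 0.466 and 0.527, with departures of 2.39 (adjusted p = 0.0269) and 2.61 (adjusted p = 0.0145) in log2.

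Exceptions stood at the upper end. Ugt2b34, a glucuronosyltransferase gene with 0 wild-type reads, was at 3 and 1.81 CPM in heterozygotes and 0.851 and 0.647 in mutants, so heterozygotes were higher than mutants and at least 3.81 above the log2 midpoint. Neurl1b, a ubiquitin ligase gene of the Notch pathway, was at 0.968 and 1.08, 5.48 and 6.94, and 4.71 and 4.22 CPM. Atp1b2, a sodium pump subunit gene, was at 9.46 and 9.16, 22.6 and 20.7, and 18.3 and 15.8 CPM. Erdr1, a gene by the region shared by the X and Y chromosomes whose reads can be split among near-identical copies, was at 182 and 229, 381 and 427, and 268 and 274 CPM. In all 4, each heterozygous value was above both mutant values (linear positions above 1); the 3 with wild-type reads departed from the log2 midpoint by 1.53, 0.78 and 0.77. These 4, and Afp, were named after their values were seen.

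The near-mutant calls were sensitive to libraries and tools. Each fit redrew the class, so a class count can include genes outside the 73. The class held 17 genes without heterozygous library 1, 47 without heterozygous library 2, 43 without mutant library 1 and 23 without mutant library 2, and 0 by limma-voom, with the Xist term or with the files as attached. All 73 stayed above the log2 midpoint in every fit that left out 1 library and with the Xist term (median departure 2.59 against 2.39). They too were chosen for lying above it in the same libraries, so this adds no separate support. With DESeq2 and with the likelihood ratio test all 73 were still called above the midpoint, but 25 and 27 of them met the rule of the class; all 19 near wild type met theirs.

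**Figure D3:**
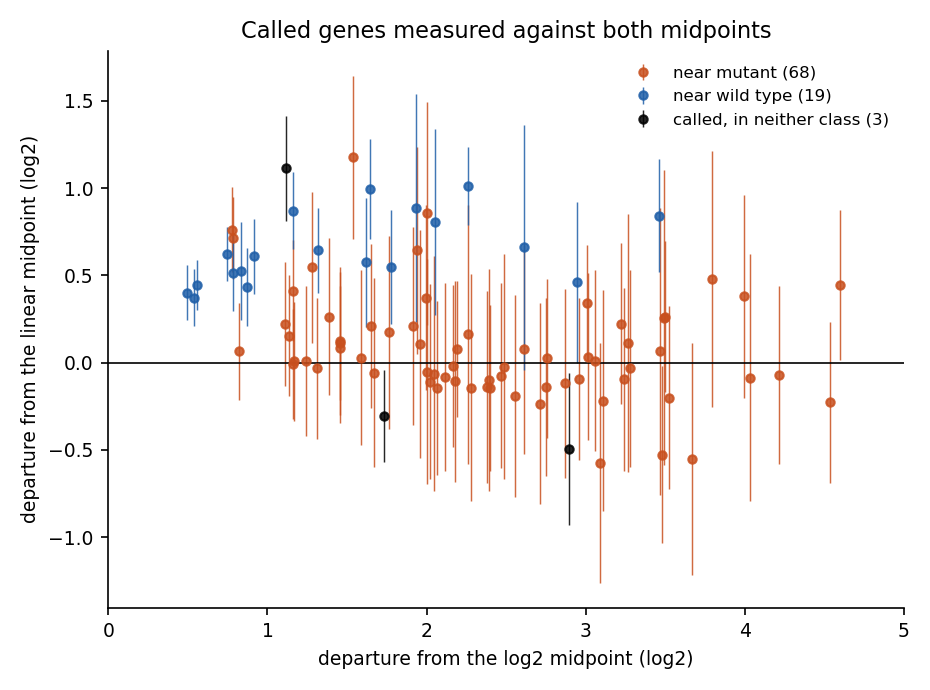
Departure from the linear midpoint (vertical axis, log2, bars are 95% intervals) against departure from the log2 midpoint (horizontal axis) for the 90 called genes with wild-type reads. The 19 genes near wild type lie above 0 on both axes, whereas the 68 orange genes scatter around 0 on the linear axis.

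Promoter windows are shown for 1 gene of each class, to set the upstream sequence of a gene near the wild-type level beside that of a gene nearer the mutant level. They are the genes with the largest departure among those averaging 10 CPM or more over the libraries and having 1 RefSeq entry (GRCm38.p6), 250 bases before to 50 after the start, with every CG in capitals. Lphn1 (chromosome 8, 83899848 to 83900147, plus strand) holds 28 CG and Slc2a2 (chromosome 3, 28697653 to 28697952, plus strand) holds 2; 43.5% of all 32851 windows of this length hold at least 10. Entries matched 14 of 19 and 55 of 73 class members, and Efnb3, Fut10, Heph, Ints10 and Zfp704 had none. The classes were not compared, so each window stands for its own gene only.
Lphn1: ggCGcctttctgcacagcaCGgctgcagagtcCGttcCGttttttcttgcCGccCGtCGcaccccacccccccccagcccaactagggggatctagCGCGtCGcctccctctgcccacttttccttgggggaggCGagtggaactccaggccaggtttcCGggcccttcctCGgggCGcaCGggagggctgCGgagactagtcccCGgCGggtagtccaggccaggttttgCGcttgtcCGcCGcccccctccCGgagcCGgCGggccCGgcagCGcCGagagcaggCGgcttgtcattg
Slc2a2: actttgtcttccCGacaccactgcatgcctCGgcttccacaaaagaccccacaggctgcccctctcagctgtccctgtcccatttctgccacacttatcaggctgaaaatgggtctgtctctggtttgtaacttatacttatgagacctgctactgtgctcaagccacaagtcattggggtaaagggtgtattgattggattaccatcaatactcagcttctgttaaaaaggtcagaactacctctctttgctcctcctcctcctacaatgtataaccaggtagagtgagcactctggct

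The other 4 called genes were in neither class. F2, the prothrombin gene, measured 0.0242 and 0.0284 CPM in wild type (2 reads in all), 5.06 and 4.19 in heterozygotes and 14.1 and 11.9 in mutants. Folr1, a folate receptor gene, was at 0.871 and 0.882, 25.6 and 21.6, and 60.7 and 54.2 CPM. Spp2, a secreted phosphoprotein gene, had 0 wild-type reads, 3.9 and 4.36 CPM in heterozygotes and 19.8 and 14.9 in mutants. All 3 were called in every pairwise contrast, with heterozygotes between the homozygotes and at linear positions of 0.355, 0.401 and 0.238. Against the linear midpoint their departures were -0.49, -0.31 and -1.07, with unadjusted p of 0.0326, 0.0298 and 0.00358. Like the exceptions above, these 3 were named after their values were seen.

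Mid1 was the only called gene that was not also called in mutant against wild type. It encodes a microtubule-associated ubiquitin ligase (X chromosome, 169685199 to 170005736, plus strand), and in laboratory mice its end lies across the boundary of the region shared by X and Y. Mid1 measured 85.3 and 103 CPM in wild type, 171 and 218 in heterozygotes and 80.1 and 90.6 in mutants. Both heterozygous libraries exceeded the other 4, with departures of 1.12 (SE 0.12, adjusted p = 0.0269) from the log2 midpoint and 1.11 from the linear one. Mutant against heterozygous just missed for Mid1 (adjusted p = 0.05002), so it is not counted as above both homozygotes. With the Xist term Mid1 was not called, as was true of each of the 96 genes.

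Genes that moved in steps were few by the strict rule. In 11 genes each of the 3 pairwise contrasts passed, the heterozygote was between, and the midpoint test did not pass; 4 were higher and 7 lower in mutants. Among those higher, Lad1, a basement membrane anchor gene, was at 18.7 and 19, 34 and 32.3, and 53.3 and 51.1 CPM. Cldn7, a tight junction gene, was at 14.2 and 14.8, 27.2 and 23.9, and 43.5 and 41.5, and Gpx4, a lipid peroxide reductase gene, at 106 and 115, 137 and 140, and 185 and 190 CPM. The genotypes did not overlap in these genes, and the departures from the log2 midpoint were 0.08, 0.04 and -0.056. Cfi, complement factor I, was at 0.436 and 0.427, 2.16 and 1.98, and 9.82 and 8.89 CPM, with departures of 0.04 (SE 0.15) from the log2 midpoint and -1.24 from the linear one (unadjusted p = 0.000455).

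Of the genes that fell in steps, Slain1, a gene of microtubule growth, was at 22.2 and 21.4, 15.3 and 16, and 6.55 and 6.95 CPM. Syt11, a synaptotagmin gene, was at 48.9 and 46.2, 36.7 and 37.4, and 18.9 and 17.4 CPM. Gpc6, a glypican gene, was at 57.3 and 57.5, 39.8 and 45.3, and 22.9 and 22.8 CPM, and Rtkn, the rhotekin gene, at 36.1 and 36.2, 25.9 and 26.4, and 15 and 13.9 CPM. All 4 lay above the log2 midpoint, by 0.36, 0.33, 0.23 and 0.19; the 95% intervals did not include 0, but the adjusted p were 0.161 to 0.428. Their linear positions were 0.359 to 0.462. A count by interval was larger: in 78 genes, 61 higher and 17 lower in mutants, the 95% interval of the departure lay within 0.25 of the mutant change on either side of the log2 midpoint. The class held 0 genes without heterozygous library 2 or without mutant library 2, 1 without mutant library 1, 3 without wild-type library 1, 0 with the Xist term or the files as attached, 6 when scaled to the neural progenitor list, 20 and 45 with other filters, and 17 (limma-voom) to 397 (DESeq2) with other tools.

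Over all 4654 genes called in mutant against wild type, the heterozygous position centred on the middle in CPM. For the 2594 genes higher in mutants the median was 0.51 in CPM and 0.65 in log2, and for the 2060 lower genes it was 0.50 in CPM and 0.43 in log2. In CPM 1910 of the higher and 1431 of the lower genes lay between 0.25 and 0.75. Positions under 0.25, as in 18 of the 19 genes near wild type, were held by 328 of the 2060 lower genes and 256 of the 2594 higher ones. Positions over 0.75, towards the mutant, were held by 301 of the lower genes and 428 of the higher ones. The 92 genes more than 8-fold lower in mutants had a median of 0.67 in CPM. Of these, 16 were under 0.25 and 34 were over 0.75. In the authors' deposited table, the log2 value over all genotypes differed from a slope per tm1a copy fitted here by a median of 0.00413, so it treats each copy as an equal log2 step; 19 of 19 genes near wild type and 69 of 73 near the mutant have a false discovery rate under 0.05 there.

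**Figure D4:**
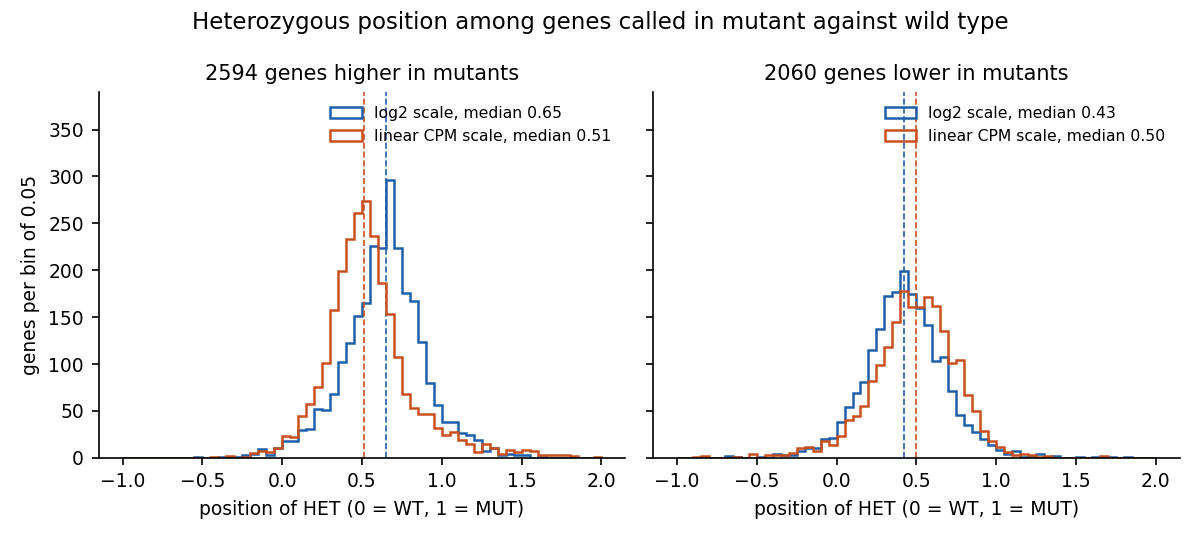
Number of genes by heterozygous position, 0 at wild type and 1 at mutant, for genes higher (left) and lower (right) in mutants, on the log2 scale (blue) and in CPM (orange), with medians dashed. The orange medians are 0.51 and 0.50; 2 and 16 of the higher genes lie outside the left axis on the 2 scales.

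Genes not called in mutant against wild type, and chosen for the smallest p, did not pass apart from Mid1. Above the midpoint were Ppp1r1b, a phosphatase inhibitor gene (4.36 and 3.13, 8.73 and 7.54, and 2.26 and 1.36 CPM; adjusted p = 0.0764), Angpt1, the gene of the vascular ligand angiopoietin-1 (adjusted p = 0.0961), Filip1 (adjusted p = 0.111) and Phf13 (adjusted p = 0.127). Below it, those named were the ribosomal gene Rps12, Rcl1, Anapc5, of the anaphase-promoting complex, and the pseudouridine synthase gene Pus7. These 4 departed by -0.23 to -0.18 with adjusted p of 0.171 to 0.183. Rps12 was at 929 and 942, 832 and 805, and 952 and 1007 CPM, with both heterozygotes below the other 4 libraries.

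The 41 gene lists held 21 of the 96 calls, and 75 were on none. Of 25 tested genes of the yolk sac visceral endoderm list 19 were above the log2 midpoint and 0 below, against 96 of 15187 overall. The median departure was 3.06, or 2.71 with 2 genes at the bound of 3 reads, and the linear one was -0.06. The list summed to 379 and 381 CPM in wild type, 3939 and 2935 in heterozygotes and 6733 and 5677 in mutants. Heterozygous positions of that sum were 0.611 and 0.439, either side of the middle. In bulk tissue, fewer cells of a type and less RNA per cell cannot be told apart.

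Heart genes stood further up against the linear midpoint, but not against the log2 one. Of 20 tested, 0 passed; 17 were above the log2 midpoint at an unadjusted p under 0.05, where 7.57% of all genes were, with a median departure of 1.92 in log2 and 1.03 against the linear midpoint. The sums were 347 and 184 CPM in wild type, 2175 and 3276 in heterozygotes and 2628 and 1530 in mutants, so heterozygous and mutant sums overlapped, with the higher mean in heterozygotes. Actc1, cardiac actin, was at 38.7 and 7.54, 367 and 725, and 357 and 175 CPM (departure 2.79, SE 0.61, adjusted p = 0.207). Gata4, a cardiac and endoderm transcription factor gene, was at 7.94 and 2.02, 115 and 94.8, and 165 and 115 CPM (1.98, SE 0.40, adjusted p = 0.174). The ventricular myosin gene Myl2 was at 0.387 and 0.0284, 3.99 and 26.7, and 3.03 and 1.77 CPM, with heterozygous library 2 far above the rest.

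Neural lists held no call. Of all genes tested 0.632% were called, so 0 in lists of this size is near that share. Of 28 forebrain genes 0 passed, and 5 were above and 1 below at an unadjusted p under 0.05. Over all genes those shares were 7.57% above and 2.27% below. The median forebrain departure was 0.32 in log2 and 0.06 in CPM terms. Rax, a gene of the eye field, was at 15.2 and 11.3, 7.83 and 9.05, and 0.745 and 0.102 CPM, a linear position of 0.375 (adjusted p = 0.28). Summed forebrain CPM were 1183 and 1043, 861 and 965, and 617 and 603, falling from genotype to genotype without overlap. Of 16 midbrain and isthmus genes, 20 neural progenitor genes, 13 neuronal genes and 20 crest genes 0 passed in any list, with medians of 0.14, 0.12, 0.25 and 0.00. The progenitor genes Sox1, at 85.1 and 87.3, 81 and 79.2, and 51.2 and 55.9 CPM, and Sox3, at 66.3 and 66, 74.3 and 62, and 46.4 and 50.9 CPM, were nearer wild type, with adjusted p of 0.232 and 0.42. Stmn2, a neuronal microtubule gene, lay at 0.316 in CPM (adjusted p = 0.355). In the same libraries the yolk sac and heart sums given above moved with genotype; their part in these levels was not tested.

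**Figure D5:**
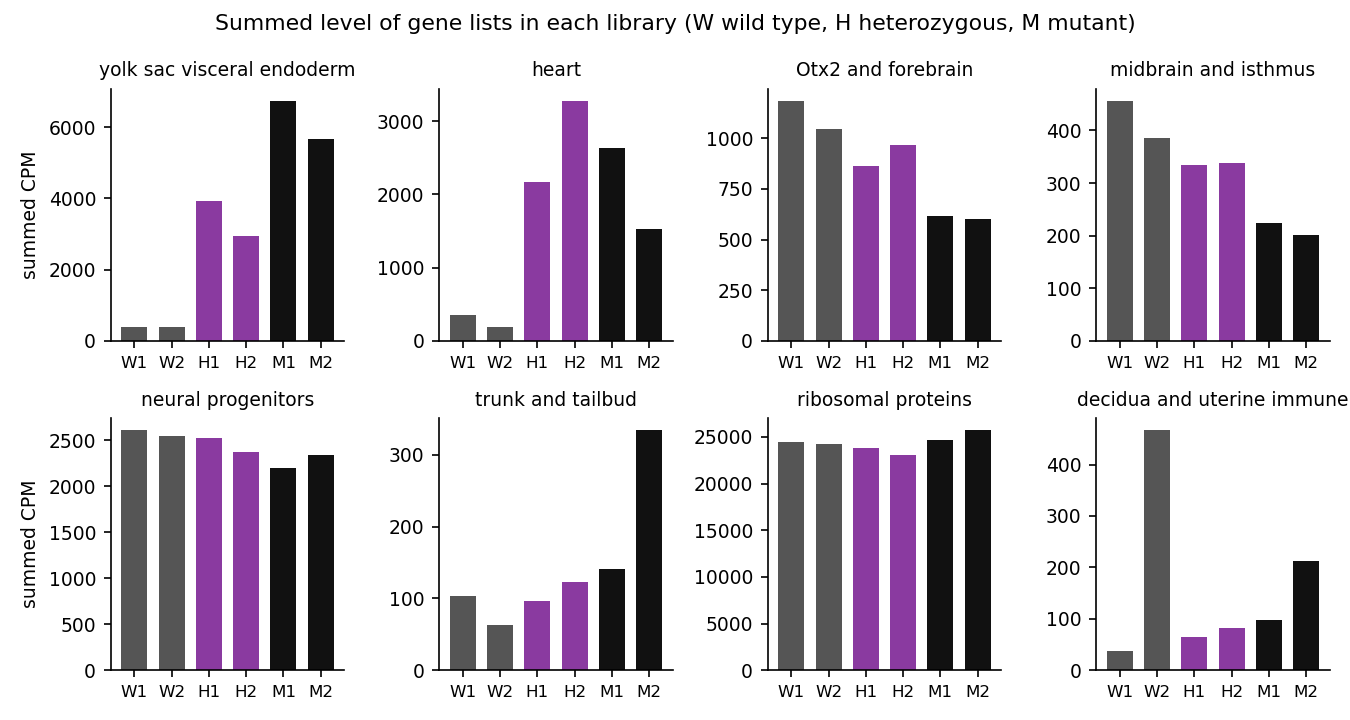
Summed CPM of 8 gene lists in each of the 6 libraries. Yolk sac sums step up from wild type to heterozygote to mutant, heart sums are 2175 and 3276 in heterozygotes against 2628 and 1530 in mutants, and decidual sums are high in wild-type library 2.

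Signalling lists held 3 calls, all seen above, of which Rbp4 is also on the yolk sac list. Of 21 Notch genes Notch3 passed. Rbpj, the DNA-binding partner of activated Notch receptors, was at 163 and 147, 146 and 151, and 86.6 and 90.2 CPM, a linear position of 0.102, and did not pass (departure 0.34, SE 0.054, adjusted p = 0.0903). Of 15 Hedgehog genes Ihh passed. The Hedgehog target and effector Gli1 was at 56.1 and 63.4, 66.2 and 63.7, and 10.1 and 17.4 CPM, with heterozygotes above the wild-type libraries and a departure of 1.18 (SE 0.20, adjusted p = 0.102). Of 16 retinoic acid genes Rbp4 passed.

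Of 25 Wnt genes, 18 FGF genes, 21 BMP genes and 20 planar cell polarity genes 0 passed, beside 0.632% of all genes tested. Sfrp5, a secreted Wnt antagonist gene, was at 12 and 10.2, 87.6 and 59.5, and 88.7 and 72.4 CPM (departure 1.30, SE 0.17, adjusted p = 0.05004, just over the threshold). Rspo1 and Spry1 are known as genes that Prdm15 activates in mouse embryonic stem cells. Rspo1, a Wnt enhancer, was at 5.18 and 5.6, 9.82 and 4.66, and 0.798 and 1.23 CPM, with heterozygotes on either side of wild type (1.64, SE 0.33, adjusted p = 0.173; 1.00 without heterozygous library 1). Spry1, a feedback inhibitor of FGF signalling, was at 47.9 and 40.2, 27.6 and 35.2, and 12.9 and 12.4 CPM, between the homozygotes (0.41, SE 0.12, adjusted p = 0.364; 0.23 without heterozygous library 2). Another FGF feedback gene, Dusp6, was lowest in heterozygotes, at 112 and 115, 65.7 and 82.2, and 84.9 and 93 CPM (-0.44, SE 0.098, adjusted p = 0.216; -0.28 without heterozygous library 1). The polarity gene Celsr3, an atypical cadherin, was at 25.4 and 24.6, 25.4 and 23.8, and 16 and 15.5 CPM, at wild-type level in heterozygotes (0.31, SE 0.068, adjusted p = 0.207).

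Other lists had 0 calls, beside 0.632% of all genes tested. The foregut genes Foxa3 and Hhex, of 17 definitive endoderm genes, departed by 1.37 (adjusted p = 0.0897) and 0.58 (adjusted p = 0.124); Hhex was higher in heterozygotes, at 19.3 and 17.8 CPM, than in either homozygote, at 9.19 and 11 and at 15.8 and 14.8. Tfcp2l1, of 16 early epiblast genes, was at 1.14 and 1.85, 20.8 and 17.5, and 44.4 and 33.5 CPM (1.33, adjusted p = 0.0707). The imprinted cell cycle inhibitor Cdkn1c was at 91.9 and 85.9, 243 and 268, and 314 and 216 CPM (0.74, adjusted p = 0.166). Of 15 PRDM family genes, counting the partner gene Zfpm1, 0 passed; Zfpm1 was at 24.8 and 22.8, 93.6 and 75.5, and 143 and 116 CPM (0.61, adjusted p = 0.172). Of 17 trunk genes 0 passed. At an unadjusted p under 0.05, 2 were below and 1 above, beside 2.27% and 7.57% of all genes. These 17 genes had a median of -0.37. Their sums were 141 and 334 CPM in mutants and 63.6 to 123 in the other 4 libraries. The trunk gene Hoxb6 was above the log2 midpoint (0.71) but below the linear one (-0.71, unadjusted p = 0.0413). The somite gene Uncx was below both (-0.79 and -0.91), at 1.31 and 1.34, 1.1 and 1.17, and 2.95 and 2.9 CPM. Of 32 ribosomal protein genes 10 were below and 0 above at an unadjusted p under 0.05, beside 2.27% and 7.57% of all genes, with a median of -0.093. The immediate early gene Egr1 was at 4.84 and 10.9, 2.16 and 3.25, and 10.3 and 10.6 CPM (adjusted p = 0.207). Decidual and uterine immune genes had a median of -3.34 over 20; their sums were 467 and 213 CPM in library 2 of wild type and mutant, and 37 to 98.4 in the other 4 libraries.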

How the data were processed

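PolyA+ RNA of embryo heads was sequenced in 6 libraries, 2 per genotype. The submitters' processing notes name TopHat2 2.0.11, HTSeq 0.6.1p2, edgeR 3.8.6, FastQC 0.11.2, bcl2fastq 2.17, cutadapt 1.8 and Trim Galore 0.4.0, and the build mm10. The annotation and strand setting were not given in the sources used here, and reads of overlapping genes and close paralogs are uncertain. The deposited files hold raw counts for 24062 symbols and 5 summary lines, which were left out. The authors' deposited table gives RPKM per title, log2 fold changes and log2 average CPM, the score of a likelihood ratio test, and p-values with false discovery rates.

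The test of the counts was edgeR 4.0.16 in R 4.3.3 (TMM, filterByExpr, glmQLFit and glmQLFTest, Benjamini-Hochberg at 0.05) in 1 fit of all 6 libraries with 3 residual degrees of freedom; the common biological coefficient of variation was 0.182. All adjusted p are from this fit. CPM use TMM library sizes. For the linear midpoint, a negative binomial fit with the heterozygous mean held at the average of both homozygous means was compared with the free fit by a quasi-likelihood F-test with the same dispersions. Alternatives were DESeq2 1.42.0, limma 3.58.1 (voom), the likelihood ratio test, other scalings and filters, an Xist term, the files as attached, and leaving out each library. A library that is then alone in its group is assumed to vary like the other groups.

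Named genes are Prdm15, Otx2, the 5 largest departures with a mean of at least 1 CPM in each near class and direction, 4 of the genes with steps in each direction, the 5 smallest p in each direction among genes not called in mutant against wild type, and up to 4 of smallest p in each list described; predicted genes were replaced, and some genes picked by this rule are not reported here. Members, the 41 gene lists, and the lists and promoters described were chosen with earlier results of these data known. Positions are from GENCODE M21 and promoters from RefSeq, both on GRCm38, the assembly of mm10; 2 genes were matched under their current names.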

Additional observations from a re-analysis of the deposited data

How the results depend on the processing

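Counts of calls depended on the tool, on the Xist term and on which file belonged to which sample. With the files as attached every count was 0. With the Xist term they were 0 for the midpoint and for each class, 516 for heterozygous against wild type, 4 for mutant against heterozygous and 2500 for mutant against wild type. DESeq2 gave 367 midpoint calls (328 above, 39 below), 52 near wild type, 164 near the mutant, 397 in steps, 8 above and 11 below both homozygotes, 1890 for heterozygous against wild type and 1313 for mutant against heterozygous; 25 of the 73 near-mutant genes were among those 164. The likelihood ratio test gave 396 (384 and 12), 47, 234 (27 of the 73 among them), 240, 4 and 6, 1579 and 801. Limma-voom gave 8 midpoint calls, all above and all near wild type, 0 near the mutant and 17 in steps. Without a filter there were 147 midpoint calls, all above, 45 in steps and 182 for mutant against heterozygous; with a mean of at least 1 CPM 20 genes were in steps. With that filter, without a filter, with DESeq2 size factors or with upper-quartile factors 1 gene was above both homozygotes. Scaled to the neural progenitor list, 6 genes were in steps and 37 were called in mutant against heterozygous; that scaling moved the median mutant change of all genes to 0.11 and the median midpoint departure to 0.002. Against the linear midpoint 0 genes passed; that test was not run for DESeq2, the likelihood ratio test, limma-voom or the Xist term.

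Leaving out 1 library at a time gave 27 to 128 midpoint calls (27 to 113 above, 0 to 15 below), 4 to 21 genes near wild type, 17 to 90 near the mutant, 0 to 14 in steps, 0 to 4 above and 0 to 4 below both homozygotes, 0 to 6 linear calls, and 1997 to 4265, 313 to 748 and 11 to 81 calls for mutant against wild type, heterozygous against wild type and mutant against heterozygous.

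Signs of named genes changed in these cases, and the cause was not tested beyond the way each setting is built. Against the linear midpoint the departures were -0.23 for Apoa4, -0.10 for Ihh, -0.49 for F2, -0.31 for Folr1, -1.07 for Spp2, -0.079 for Tfcp2l1 and -0.53 for Afp. With the files as attached, where each homozygous group averages 1 wild-type and 1 mutant library and the contrast is close to the linear one by construction, they were -0.22 for Apoa4, -0.096 for Ihh, -0.49 for F2, -0.30 for Folr1, -1.05 for Spp2, -0.066 for Tfcp2l1 and -0.51 for Afp, and the mutant changes of Lad1, Cldn7, Cfi and Gpc6 were -0.041, -0.039, -0.14 and 0.0017. Against the linear midpoint Hoxb6, Cfi, Cldn7 and Lad1 also changed sign, with departures of -0.71, -1.24, -0.16 and -0.098. Midpoint departures of Hoxb6 and of the genes with steps were not followed in the other settings. Prdm15, never called, ranged from -0.15 to 0.020 over the fits without 1 library, with 0.020 without heterozygous library 1 and 0.0098 without mutant library 2. No paired analysis was possible because the titles of the genotypes share no replicate numbers. Genes under about 1 CPM, which most near-mutant genes are in wild type, are limited by counting error: 3 reads equal 0.0742 to 0.102 CPM in a library.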
